A study of Mus musculus with 90 samples.

Results

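The 9 genes described here make fatty acids from citrate in mouse liver, or control that synthesis: Acly, Acaca, Acacb, Fasn, Me1, Thrsp, Srebf1, Mlxipl and Pnpla3. They were taken as a set of mouse symbols matched to the Entrez gene IDs of the deposited tables, not by any measured value. All 9 of 9 were found among the 24475 genes of each table, and all 9 passed the filter on low counts in both experiments, in which 13574 and 12847 genes were tested. The data are bulk RNA-seq of liver from 90 mouse samples in 9 groups of 10, as 2 experiments with 1 table each. In experiment 1, short hairpin RNAs carried by an adeno-associated virus (AAV) of serotype 8 lowered the glucagon receptor (Gcgr KD), the stimulatory G protein alpha subunit (Gnas KD), protein kinase A (PKA KD) or the cAMP-activated exchange factor Epac2, encoded by Rapgef4 (Epac2 KD), and a Control group was kept. In experiment 2, a Control AAV or a knockdown of Prkar1a, the PKA regulatory subunit that holds the catalytic subunits inactive, was given with a Control mAb or with a receptor-directed antibody (Gcgr mAb). Its groups are Control AAV + Control mAb, Control AAV + Gcgr mAb, Prkar1a KD + Control mAb and Prkar1a KD + Gcgr mAb. The series text speaks of activating PKA with or without inhibition of the receptor, and does not name the gene used.

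The labels used here name no strain, sex, age, diet, time after injection or time of day. They do not say what the Control mice of experiment 1 received, which PKA subunits were targeted, or which promoter drove the hairpins. They give replicate numbers without saying that each is a separate mouse, so the p-values here speak of the spread among samples, which may be technical in part. In bulk liver, fewer cells of a type and less RNA per cell cannot be told apart.

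De novo lipogenesis turns carbohydrate carbon into palmitate: Acly cleaves citrate to cytosolic acetyl-CoA, Acaca and Acacb carboxylate it to malonyl-CoA, and Fasn joins the units with NADPH, part of which Me1 supplies. Insulin drives the program in liver through Srebf1 (SREBP-1), glucose drives it through Mlxipl (ChREBP), and Thrsp and Pnpla3 are responsive to the same fed-state signals. Glucagon acts in the opposite way in the textbook account, through Gnas, cAMP and PKA.

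Promoter windows are printed for the 4 members with the largest falls after Prkar1a knockdown (Thrsp, Acacb, Pnpla3 and Fasn), for Acly, which did not pass the test there, and for 1 start of the regulator Srebf1. Each runs from 250 bases before to 50 bases after a RefSeq transcript start on GRCm38.p6, which need not be the first start of the gene. The Acacb gene begins at 114146321 and the Fasn gene, on the minus strand, at 120825166, so both of their windows lie inside the gene. The windows are chr7:97417501-97417800 on the minus strand for Thrsp, chr5:114165268-114165567 on the plus strand for Acacb, chr15:84167566-84167865 on the plus strand for Pnpla3, chr11:120824498-120824797 on the minus strand for Fasn, chr11:100527951-100528250 on the minus strand for Acly and chr11:60210422-60210721 on the minus strand for Srebf1. Capitals mark matches, on either strand, to the letters CCAAT (bound by NF-Y), GGGCGG (SP1), CATGTG and CACGTG (E-boxes), TCACNCCAC (a sterol response element) and TGACGTCA (the full cAMP response element). Neighbouring or overlapping matches run together, as the pair of CCAAT matches on opposite strands does in Fasn.
Thrsp: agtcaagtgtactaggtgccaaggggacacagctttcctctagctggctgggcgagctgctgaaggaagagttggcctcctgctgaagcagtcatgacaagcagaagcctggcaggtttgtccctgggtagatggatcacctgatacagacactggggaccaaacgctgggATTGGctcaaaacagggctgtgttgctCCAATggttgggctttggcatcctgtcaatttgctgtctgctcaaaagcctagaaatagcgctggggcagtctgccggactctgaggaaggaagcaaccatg
Acacb: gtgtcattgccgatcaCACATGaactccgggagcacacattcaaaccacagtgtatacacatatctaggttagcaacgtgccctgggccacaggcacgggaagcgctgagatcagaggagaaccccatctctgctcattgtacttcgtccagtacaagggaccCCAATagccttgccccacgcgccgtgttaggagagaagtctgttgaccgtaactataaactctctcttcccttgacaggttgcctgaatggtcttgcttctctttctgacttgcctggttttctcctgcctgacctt
Pnpla3: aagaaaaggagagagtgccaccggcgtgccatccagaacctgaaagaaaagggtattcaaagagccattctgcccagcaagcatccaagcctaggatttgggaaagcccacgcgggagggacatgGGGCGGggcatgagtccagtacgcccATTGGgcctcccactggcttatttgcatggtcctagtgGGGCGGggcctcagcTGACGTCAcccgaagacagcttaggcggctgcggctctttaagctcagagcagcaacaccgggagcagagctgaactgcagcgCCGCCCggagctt
Fasn: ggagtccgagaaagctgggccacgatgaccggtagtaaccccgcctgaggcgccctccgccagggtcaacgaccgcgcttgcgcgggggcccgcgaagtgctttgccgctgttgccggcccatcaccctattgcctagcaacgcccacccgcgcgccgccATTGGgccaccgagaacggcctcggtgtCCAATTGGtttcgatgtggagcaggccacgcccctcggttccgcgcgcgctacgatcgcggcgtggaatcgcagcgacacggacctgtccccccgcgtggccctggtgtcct
Acly: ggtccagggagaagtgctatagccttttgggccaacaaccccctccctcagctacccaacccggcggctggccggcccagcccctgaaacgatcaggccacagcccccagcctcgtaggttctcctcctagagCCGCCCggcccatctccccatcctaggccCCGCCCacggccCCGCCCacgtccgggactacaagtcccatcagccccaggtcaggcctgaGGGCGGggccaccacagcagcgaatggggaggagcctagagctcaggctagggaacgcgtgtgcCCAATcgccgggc
Srebf1: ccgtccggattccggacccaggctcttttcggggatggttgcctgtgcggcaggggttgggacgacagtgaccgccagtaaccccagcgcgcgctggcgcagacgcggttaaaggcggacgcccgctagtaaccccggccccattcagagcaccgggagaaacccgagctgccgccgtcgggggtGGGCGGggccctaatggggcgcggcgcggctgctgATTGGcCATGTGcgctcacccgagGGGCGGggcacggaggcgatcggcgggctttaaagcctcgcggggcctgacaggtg

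All 9 members had at least 1 window in the RefSeq table, 13 in all. The CCAAT letters stood in 9 of the 13, against 37.4% of the 32851 windows of all genes. GGGCGG stood in 6 of the 13, against 35.7% of all windows. TGACGTCA stood in 1.79% of all windows and in 1 of the 13, that of Pnpla3, where its first base lies 46 bases before the start. CATGTG stood in 3 of the 13 (14.2% of all windows), CACGTG in 1 (7.15%) and TCACNCCAC in 1 (1.24%), the last pair both in Mlxipl windows that are not printed. The Acaca window, at 84195188, also lies inside its gene, which begins at 84129635. A match or the lack of one describes letters in these windows only, not every promoter of a gene, and no binding was measured. The counts are per gene, so the starts of Srebf1 that give SREBP-1a and SREBP-1c, and those of Mlxipl that give ChREBP-alpha and ChREBP-beta, were not separated.

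Total counts ran from 20.8 to 33.7 M (mega) per library in experiment 1 (median 25.3 M) and from 8.87 to 19.5 M in experiment 2 (median 16.5 M). Levels are given as CPM, the count scaled to the TMM-adjusted library total, and the 2 tables were never tested against each other. Each targeted gene was low in its own group without overlap with the controls. Gcgr was at 38.3 to 54.1 CPM in Gcgr KD against 146 to 218 in Control, and Gnas at 34.9 to 94.2 against 339 to 403. In PKA KD both catalytic subunit genes were low, Prkaca at 7.34 to 23.4 against 85.6 to 107 CPM and Prkacb at 6.73 to 13.8 against 34.7 to 44.6. Rapgef4 was at 5.19 to 14.5 in Epac2 KD against 68.7 to 122, and Prkar1a at 28.6 to 35.1 in Prkar1a KD + Control mAb against 97.8 to 135 CPM in Control AAV + Control mAb. Some targets also moved in other groups. Prkar1a was at 98.4 to 119 CPM in PKA KD and 103 to 120 in Gcgr KD, against 123 to 134 in Control. Mean Rapgef4 was 145 CPM in Prkar1a KD + Control mAb and 115 in Control AAV + Gcgr mAb, against 77.8 in Control AAV + Control mAb. Mean Gcgr was 124 CPM in Prkar1a KD + Control mAb, against 163 in Control AAV + Control mAb. PKA KD replicate 5 had the highest remaining Prkaca of its group (23.4 CPM). Control AAV + Gcgr mAb replicate 2 had a median correlation with its group of 0.937, against 0.968 for the next lowest.

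Per kilobase of merged exon, the Control livers of experiment 1 held most Fasn RNA, at a mean of 135 CPM per kb. Thrsp (102), Me1 (89.9), Acly (83.1) and Mlxipl (74.6 CPM per kb) followed, then Srebf1 at 47.0. Of the acetyl-CoA carboxylases, Acacb, the isoform at the mitochondrial membrane, stood at 17.1 and Acaca, the cytosolic isoform, at 10.9 CPM per kb. Pnpla3, a lipid droplet protein, was the lowest at 3.23. The order of the carboxylases depends on the length used, 17.1 kb for Acaca and 9.63 kb for Acacb. In CPM Acaca was the higher, with means of 187 against 165 in Control and 125 against 82.6 in Control AAV + Control mAb. In Control AAV + Control mAb of experiment 2 the order was Thrsp (143), Me1 (97.3), Fasn (60.2), Acly (53.5), Srebf1 (37.0), Mlxipl (35.7), Acacb (8.57), Acaca (7.34) and Pnpla3 (2.56 CPM per kb). When the 5 groups of experiment 1 were ordered by mean CPM for each member, 35 of the 36 pairs of neighbours lay within the larger SD of the pair. The exception was Srebf1 in PKA KD. In experiment 2, 20 of 27 neighbouring pairs did so, and of the 7 that did not, 5 set a Control AAV group above Prkar1a KD + Gcgr mAb (Acaca, Acacb, Fasn, Thrsp and Srebf1). The other two were Me1 between the Control AAV groups and Acaca between the Prkar1a KD groups.

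**Figure D1:**
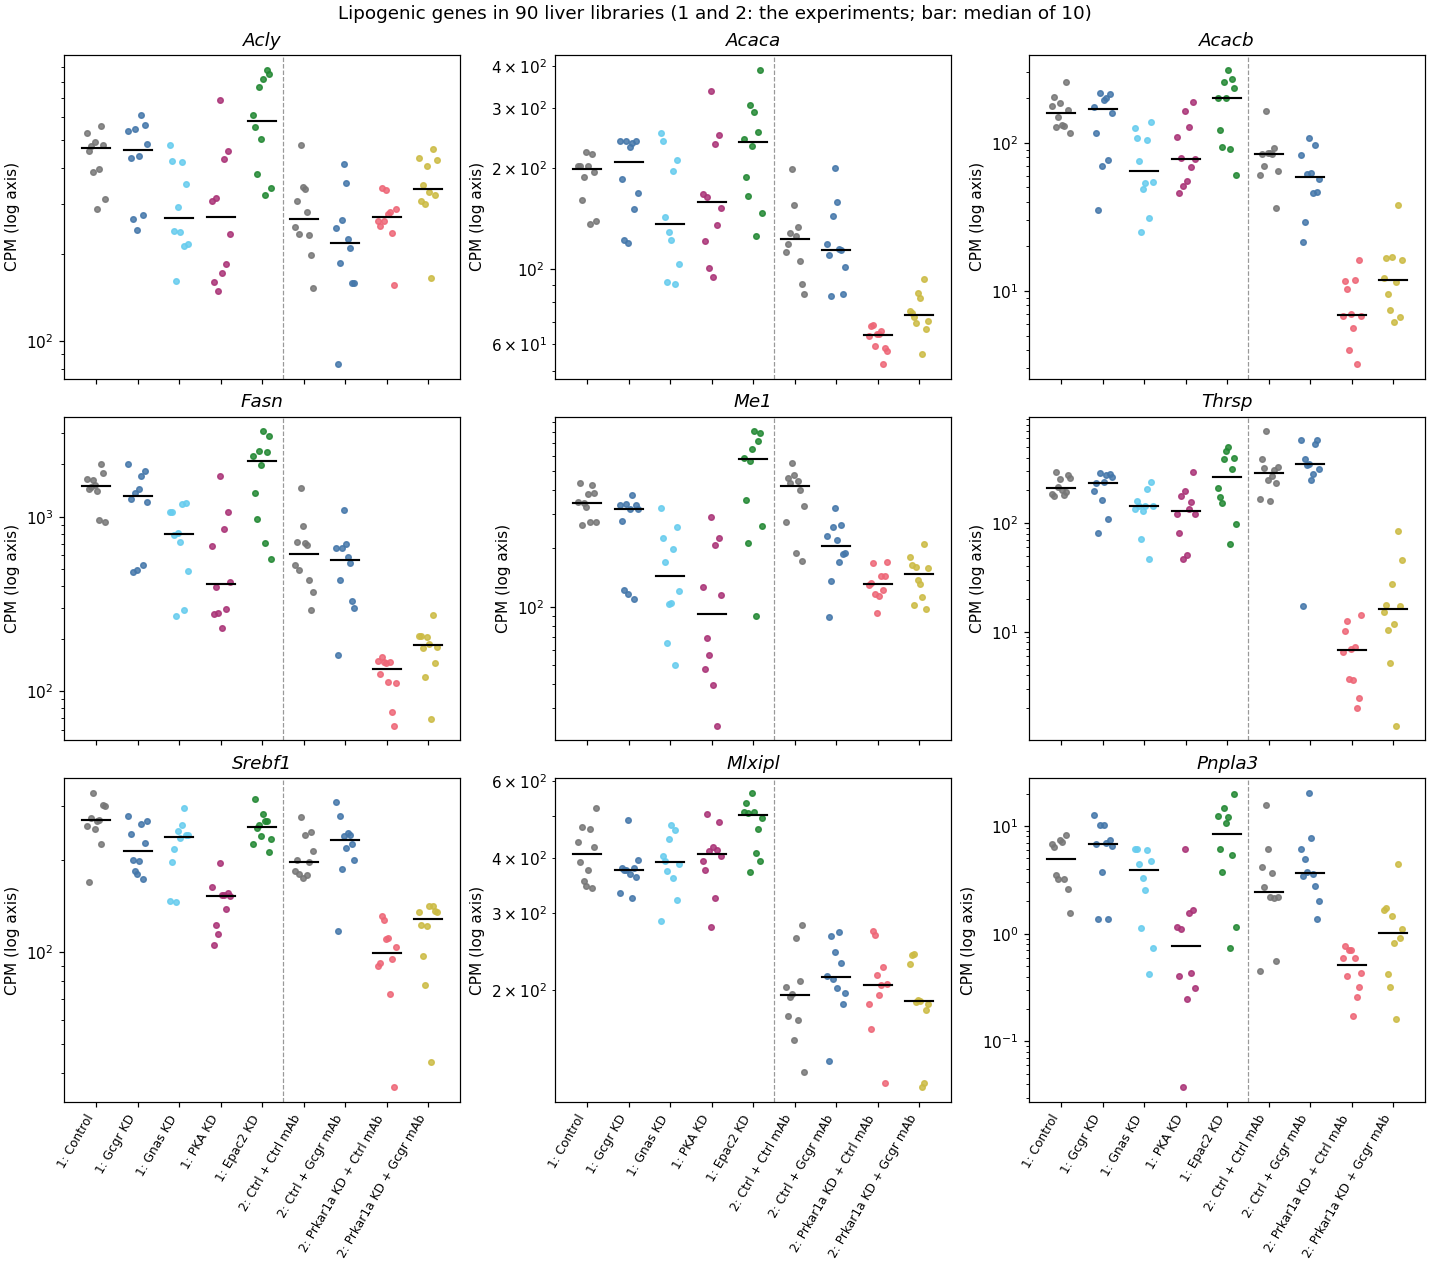
Level of each member in CPM on a log axis for the 10 libraries of each group, with a bar at the median; the dashed line parts the 2 experiments, whose levels are not comparable. Thrsp and Acacb lie lowest in the groups with Prkar1a KD, and Mlxipl lies at similar levels in the 4 groups of experiment 2.

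Lowering the glucagon receptor itself moved none of the 9 members past the test. In Gcgr KD against Control, 0 members rose and 0 fell (edgeR quasi-likelihood test, Benjamini-Hochberg adjusted p under 0.05 over all genes tested), where 2.9% of all genes tested rose and 4.33% fell. Fasn was at 480, 1310 and 2010 CPM (lowest, median, highest) in Gcgr KD and 928, 1500 and 2000 in Control. The Gcgr KD libraries reached lower and the ranges overlapped. The log2 difference was -0.26 ± 0.34 (SE, n = 10 per group). Me1 was at 110, 320 and 376 CPM in Gcgr KD and 264, 345 and 435 in Control, a difference of -0.38 ± 0.36 on the log2 scale with an adjusted p of 0.591. The 9 log2 differences had a median of -0.13, against 0.01 over all genes, and ran from -0.38 for Me1 to 0.43 for Pnpla3. Among the transcription regulators Srebf1 differed by -0.26 ± 0.11 with an adjusted p of 0.165.

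The antibody to the receptor gave 1 member below the threshold in mice with the Control AAV. Me1, the malic enzyme, was at 88.9, 205 and 323 CPM with the Gcgr mAb and 172, 418 and 551 with the Control mAb. All 10 libraries with the antibody lay below the median of the others, and 3 lay below their lowest. Me1 fell by 0.86 ± 0.19 on the log2 scale, 1.81-fold, with an adjusted p of 0.00269. Of all genes, 2.92% rose and 5.27% fell in this comparison. The other members did not pass: Acacb differed by -0.44 ± 0.29, Fasn by -0.27 ± 0.26, Acly by -0.29 ± 0.20 and Thrsp by 0.23 ± 0.46. Thrsp ran from 17.2 to 586 CPM with the Gcgr mAb, the lowest being replicate 2, and from 158 to 699 CPM with the Control mAb. Among the genes of substrate supply, NADPH and fatty acid modification, Elovl5 (-1.12), Fads1 (-0.82) and Fads2 (-0.81) fell and G6pdx rose by 0.60, so 3 of 11 fell and 1 rose. In the same libraries 1 of 6 Kupffer cell markers (Adgre1, 0.81) and 1 of 5 endothelial markers (Stab2, 0.62) rose, and their part was not tested. In Gcgr KD, 2 of those 11 fell, Fads1 (-0.70) and Mid1ip1 (-0.53), and 0 rose, where 4.33% of all genes fell and 2.9% rose.

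Knockdown of Gnas, the step after the receptor, lowered Acacb and Me1. Acacb was at 25.2, 65.0 and 138 CPM in Gnas KD and 116, 158 and 259 in Control. In Gnas KD 8 of 10 libraries lay below the lowest Control library, and the ranges overlapped. Acacb fell by 1.10 ± 0.32 on the log2 scale, 2.15-fold, with an adjusted p of 0.0128. Me1 was at 50.1, 145 and 324 CPM against 264, 345 and 435 in Control, with 9 of 10 libraries below the lowest Control library. The highest, replicate 1, was also the Gnas KD library with most Gnas left (94.2 CPM). Me1 fell by 1.09 ± 0.37, 2.13-fold, with an adjusted p of 0.0355. So 2 of 9 members fell and 0 rose, where 8.32% of all genes tested fell and 6.83% rose. All 9 log2 differences were below 0, as were 47.0% of all genes, and their median was -0.53 against 0.01. Members vary together within groups, as given below, so the 9 signs are not separate observations. Fasn, at 269, 794 and 1200 CPM in Gnas KD against 928, 1500 and 2000 in Control, differed by -0.91 ± 0.34 with an adjusted p of 0.061. Fasn passed with DESeq2 (adjusted p 0.0392), with limma-voom (0.0318), in the fit of only those groups (0.0135) and with replicate number as a block (0.0331). Thrsp (-0.66 ± 0.30, adjusted p 0.141) and Acly (-0.53 ± 0.24, adjusted p 0.131) did not pass either. The count of members called ran from 1 with no filter on low counts, where Me1 had an adjusted p of 0.0515, to 5 when only Gnas KD and Control were fitted.

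Knockdown of PKA lowered 4 of the 9 members, Fasn, Me1, Pnpla3 and Srebf1, and raised 0, where 14.8% of all genes tested fell and 17.7% rose. Fasn was at 229, 411 and 1720 CPM in PKA KD and 928, 1500 and 2000 in Control. In PKA KD 8 of 10 libraries lay below the lowest Control library. Fasn fell by 1.25 ± 0.34 on the log2 scale, 2.38-fold, with an adjusted p of 0.00333. Me1 was at 24.4, 91.8 and 292 CPM, with 9 of 10 libraries below the lowest Control library at 264. It fell by 1.52 ± 0.37, 2.87-fold, with an adjusted p of 0.00113. Pnpla3, a triglyceride-associated acyltransferase and lipase, was at 0.0374, 0.764 and 6.07 CPM against 1.55, 4.93 and 8.28 in Control. It fell by 1.90 ± 0.55 with an adjusted p of 0.00546. Without replicate 5, the library at 6.07 CPM, the log2 difference was -2.71. These are low levels, with a median of 18.7 counts per library in PKA KD.

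Srebf1 had the smallest fold change and the smallest standard error of the 4. It was at 105, 152 and 195 CPM in PKA KD and 169, 269 and 331 in Control. In PKA KD 9 of 10 libraries lay below the lowest Control library and all 10 below the Control median. Srebf1 fell by 0.87 ± 0.11 on the log2 scale, 1.82-fold, with an adjusted p of 2.56e-08. Mlxipl, which encodes ChREBP, was at 278, 409 and 504 CPM against 342, 408 and 520 in Control, a difference of -0.04 ± 0.094. Acaca, at 95.0, 158 and 339 CPM against 136, 199 and 223 in Control, differed by -0.09 ± 0.21. Acacb (-0.77 ± 0.31, adjusted p 0.0563), Thrsp (-0.70 ± 0.30, adjusted p 0.0725) and Acly (-0.50 ± 0.24, adjusted p 0.107) were below 0 without passing. Acacb passed with DESeq2 (adjusted p 0.0489), in the fit of only those groups (0.0227) and with replicate number as a block (0.037), and Thrsp passed in the fit of only those groups (0.0482). All 9 differences were below 0 with a median of -0.77 against 0.01 over all genes, and these signs too are not separate observations. Replicate 5 had the highest level of the group for Acly, Acaca, Fasn, Me1, Srebf1 and Pnpla3. Without it 6 members fell, with Acly (-0.71) and Acacb (-0.88) added, and with limma-voom 7 did.

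Some markers of cell types also passed the test in these groups. Of all genes tested, 17.7% rose and 14.8% fell in PKA KD, and 6.83% rose and 8.32% fell in Gnas KD. Marker counts near or below those shares are no result about a cell type. In PKA KD the cholangiocyte markers Spp1 (1.25) and Sox9 (0.58) rose, 2 of 5, with a summed marker level of 37.8 to 310 CPM against 27.9 to 102 in Control. Spp1 made up most of that sum, with medians of 54.9 and 27.0 CPM. In Gnas KD Spp1 and Sox9 rose, by 1.45 and 0.60, and 3 of 6 stellate cell and fibroblast markers rose, Col1a1 by 1.30, Col3a1 by 1.02 and Reln by 0.35. Hepatocyte markers had 2 fall and 1 rise of 8 in PKA KD, and summed to 76300 to 105000 CPM against 87100 to 120000 in Control. Alb made up most of the hepatocyte sum, with medians of 62200 and 69800 CPM. The endothelial marker Lyve1 (-0.93) fell in PKA KD, 1 of 5, and 0 of 6 Kupffer cell markers passed in either group. Of 5 lymphocyte markers 1 fell in PKA KD and 0 passed in Gnas KD. Of 3 adipocyte markers tested, Car3 (-0.90) fell in PKA KD, and of 8 hepatocyte markers Hnf4a (-0.17) fell in Gnas KD. Car3 was at 3350 to 5130 CPM in Control, where Adipoq and Plin1 had medians of 0.0 CPM. Its fall is therefore no measure of adipocyte content. The part of these markers in the results of the 9 genes was not tested.

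Epac2 knockdown moved none of the 9 members past the test, where 1.82% of all genes tested rose and 2.74% fell. Fasn was at 572, 2100 and 3090 CPM in Epac2 KD and 928, 1500 and 2000 in Control. The spread widened at both ends. The log2 difference was 0.33 ± 0.34. Me1 likewise ran from 89.5 to 804 CPM with a median of 575, a difference of 0.54 ± 0.36 with an adjusted p of 0.503. Of the 9 log2 differences 8 were above 0 with a median of 0.33, against 0.02 over all genes. The one below 0 was that of Srebf1, -0.05 ± 0.11, at 212 to 316 CPM. Because members vary together, the 9 signs are not separate observations here either.

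The knockdowns of experiment 1 were also set against each other. Between Gnas KD and Gcgr KD 0 members passed, where 2.37% of all genes tested rose and 3.47% fell; the largest difference among the enzymes was that of Acacb, -0.93, with an adjusted p of 0.0725. Acacb passed with DESeq2 (0.0444), without Gcgr KD replicate 5 (-1.01, adjusted p 0.0491) and without Gnas KD replicate 1 (-1.04, adjusted p 0.0414). PKA KD was below Gcgr KD in 4 members, with 17.3% of all genes rising and 14.4% falling. Those were Fasn (-0.99 ± 0.34), Me1 (-1.14 ± 0.37), Srebf1 (-0.61 ± 0.11) and Pnpla3 (-2.33 ± 0.55). In the fit of only those groups Fasn did not pass (adjusted p 0.0617). Without PKA KD replicate 5 the Pnpla3 difference was -3.13 against Gcgr KD and -2.22 against Gnas KD. PKA KD was below Gnas KD in 2 members, Srebf1 (-0.62 ± 0.11) with an adjusted p of 2.6e-05 and Pnpla3 (-1.42 ± 0.55) with an adjusted p of 0.0403, where 18.4% of all genes rose and 15.6% fell. The Pnpla3 difference did not pass without the low-count filter (adjusted p 0.0533), with limma-voom (0.0656), in the fit of only those groups (0.0824) or without Gnas KD replicate 1 (0.071). These comparisons share libraries with those against Control.

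**Figure D2:**
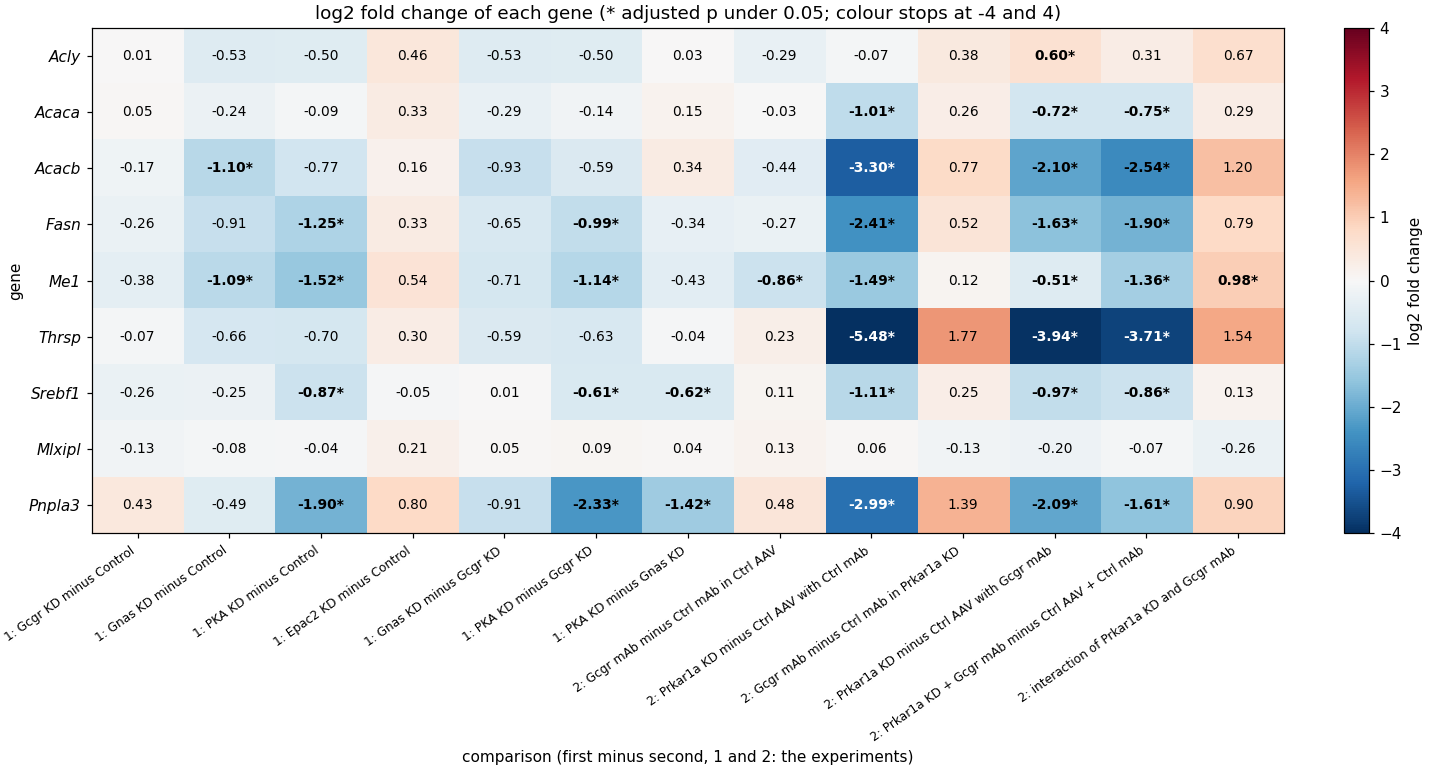
log2 fold change of each member (vertical axis) in each comparison (horizontal axis), as the first group minus the second; an asterisk and bold type mark an adjusted p under 0.05 and colour runs from -4 to 4. Mlxipl was called in none of the 13 comparisons, and 7 members fell in each of the 3 comparisons of a Prkar1a KD group with a Control AAV group.

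Prkar1a knockdown, with the Control mAb, lowered 7 of the 9 members and raised 0, where 26.9% of all genes tested fell and 29.3% rose. Thrsp, a nuclear protein that promotes lipogenesis, had the largest fall. It was at 1.99, 6.76 and 14.4 CPM in Prkar1a KD + Control mAb and 158, 289 and 699 in Control AAV + Control mAb, and the ranges lay far apart. Thrsp fell by 5.48 ± 0.56 on the log2 scale, 44.6-fold, with an adjusted p of 1.86e-10. Acacb was at 3.21, 6.88 and 16.1 CPM against 36.6, 83.8 and 163. These ranges did not overlap either. It fell by 3.30 ± 0.33, 9.88-fold, with an adjusted p of 7.75e-11. Pnpla3 was at 0.172, 0.508 and 0.762 CPM against 0.448, 2.44 and 15.6, with 5 of 10 libraries below the lowest control. It fell by 2.99 ± 0.57, 7.97-fold, with an adjusted p of 2.52e-05. These are low levels, with a median of 8.75 counts per library in Prkar1a KD + Control mAb. The control library at 15.6 CPM was replicate 4, and the next stood at 6.11.

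Of the core enzymes, Fasn was at 63.5, 135 and 158 CPM in Prkar1a KD + Control mAb and 291, 611 and 1470 in Control AAV + Control mAb, with no overlap. It fell by 2.41 ± 0.28, 5.33-fold, with an adjusted p of 1.89e-09. Me1 was at 93.5, 131 and 170 CPM against 172, 418 and 551, and fell by 1.49 ± 0.19, 2.80-fold, with an adjusted p of 2.28e-08. The highest knockdown library lay just under the lowest control. Acaca was at 52.4, 63.9 and 68.3 CPM against 84.4, 123 and 199, without overlap, and fell by 1.01 ± 0.13 with an adjusted p of 1.35e-08. Acly did not pass: its 157, 269 and 340 CPM lay inside the control range of 153 to 480 with a median of 266, and the log2 difference was -0.07 ± 0.20.

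Of the transcription factors, Srebf1 fell and Mlxipl did not pass. Srebf1 was at 36.0, 99.3 and 131 CPM in Prkar1a KD + Control mAb against 174, 197 and 275 in Control AAV + Control mAb, with no overlap. It fell by 1.11 ± 0.18, 2.16-fold, with an adjusted p of 1.53e-06. Mlxipl was at 123, 206 and 273 CPM against 130, 195 and 282, a difference of 0.06 ± 0.14 on the log2 scale. Whether the changes of Srebf1 and Mlxipl differ was not tested. The median over the 9 members was -1.49 against 0.02 over all genes.

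Some markers of cell types and genes of the circadian clock also passed in the same libraries, where 29.3% of all genes rose and 26.9% fell. Marker counts near or below those shares are no result about a cell type. Hepatocyte markers summed to 33000 to 47100 CPM in Prkar1a KD + Control mAb against 79300 to 89500, with 5 of 8 falling and 2 (Cps1 by 1.39 and Hnf4a by 0.77) rising. Alb made up most of the sum, with medians of 19900 and 57200 CPM, so the sum largely follows Alb. Of 13 clock genes 3 rose, with Arntl at 1.84, and 7 fell, with Per3 at -2.42 and Dbp at -2.41. Of the adipocyte markers, 3 of 8 passed the filter and all 3 fell: Cidec (-5.06), Car3 (-1.27) and Fabp4 (-1.18). Of the others, 2 of 5 endothelial, 2 of 6 stellate, 1 of 5 cholangiocyte and 0 of 6 Kupffer cell markers fell, and 0 rose. The defining adipocyte genes Adipoq and Plin1 had medians of at most 0.109 and 0.0536 CPM in every group. Car3 and Cidec had medians of 3840 and 46.6 CPM in Control AAV + Control mAb, so their falls are no measure of adipocyte content. The part of hepatocyte content and time of day in the results of the 9 genes was not tested.

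With the Gcgr mAb given to both sides, Prkar1a knockdown lowered the same 7 members and raised Acly, where 26.6% of all genes fell and 26.5% rose. Acly was at 166, 338 and 467 CPM in Prkar1a KD + Gcgr mAb and 83.0, 219 and 413 in Control AAV + Gcgr mAb, with overlapping ranges. It rose by 0.60 ± 0.20 with an adjusted p of 0.011. In this comparison 5 of 8 hepatocyte, 4 of 6 Kupffer cell, 4 of 5 endothelial, 4 of 6 stellate, 2 of 5 cholangiocyte and 3 of 3 adipocyte markers fell, and 2 hepatocyte markers rose. Of 13 clock genes 3 rose and 3 fell. The part of these markers and clock genes in the differences was not tested. The log2 differences were -3.94 ± 0.52 for Thrsp, -2.10 ± 0.31 for Acacb, -2.09 ± 0.51 for Pnpla3, -1.63 ± 0.27 for Fasn, -0.97 ± 0.18 for Srebf1, -0.72 ± 0.13 for Acaca and -0.51 ± 0.19 for Me1. Against Control AAV + Control mAb, Prkar1a KD + Gcgr mAb lowered 7 members and raised 0, where 24.2% of all genes fell and 26.0% rose. In that comparison 1 of 13 clock genes rose and 1 fell. There Pnpla3 fell by 1.61 ± 0.51 with an adjusted p of 0.00831. Without Control AAV + Control mAb replicate 4, the highest of its group at 15.6 CPM, it was -1.04 with an adjusted p of 0.0644. Fasn, Thrsp and Srebf1 did not overlap between those groups. These comparisons share libraries with each other and with those above.

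Within Prkar1a KD, the Gcgr mAb moved 0 of the 9 members past the test, and 0.0% of all genes rose or fell. Of 12847 genes 846 had an unadjusted p under 0.05, and DESeq2 and limma-voom also called 0. The 9 log2 differences had a median of 0.38, against -0.0 over all genes, and 96.7% of all genes lay below that median. Only that of Mlxipl (-0.13) was below 0. Since members vary together within groups, the 9 values are not separate observations. Thrsp was at 1.37, 16.3 and 85.3 CPM with the Gcgr mAb and 1.99, 6.76 and 14.4 with the Control mAb, a difference of 1.77 ± 0.50 with an adjusted p of 0.447. The highest was replicate 8, and the next stood at 45.8 CPM. The interaction of knockdown and antibody, tested as a difference of differences, was called for Me1 alone among the 9, where 2.74% of all genes were positive and 1.34% negative. The 9 interaction values had a median of 0.79, against -0.01 over all genes, and only that of Mlxipl (-0.26) was below 0. The same limit holds for these 9 values. The antibody changed Me1 by -0.86 in Control AAV and by 0.12 ± 0.19 in Prkar1a KD, and the interaction was 0.98 ± 0.27 with an adjusted p of 0.0279. It lost the call without Control AAV + Control mAb replicate 4 (0.90, adjusted p 0.0501), without Prkar1a KD + Gcgr mAb replicate 8 (0.91, adjusted p 0.0506) and with replicate number as a block (0.92, adjusted p 0.0543).

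The other genes of the pathway give the setting, beside the shares of all genes tested. In Gnas KD 6.83% of all genes rose and 8.32% fell, and in PKA KD 17.7% rose and 14.8% fell. For Prkar1a KD + Control mAb the shares were 29.3% and 26.9%. Of the 11 genes of substrate supply, NADPH and fatty acid modification, 7 fell in Gnas KD, 7 in PKA KD and 9 in Prkar1a KD + Control mAb, and 0 rose in any of the 3. In PKA KD the largest falls were those of Scd1 (-2.28), the delta-9 desaturase, Fads2 (-1.64) and Fads1 (-1.29). In Prkar1a KD + Control mAb they were Scd1 (-3.67), Acss2 (-2.18), which makes acetyl-CoA from acetate, and Elovl5 (-1.89). In Gnas KD they were Elovl5 (-1.16), Fads2 (-1.08) and Fads1 (-0.98). Of 7 triglyceride assembly genes, 3 fell in Gnas KD, 3 in PKA KD and 5 in Prkar1a KD + Control mAb, where the largest were Mogat1 (-5.68), Gpam (-1.75) and Lpin1 (-1.51).

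The lists that follow stand beside the same shares of all genes, and counts near or below those shares are no result about a list. Of the 8 genes of sugar supply and ChREBP targets, 1 fell in Gnas KD (Gckr, -0.24), 1 in PKA KD (Pklr, -0.55) and 6 in Prkar1a KD + Control mAb. Those with the largest falls in the last were Pklr (-2.45), the pyruvate kinase of liver, and Slc2a2 (-1.68), the hepatic glucose transporter. Mlxipl itself did not pass in any of the 3, as given above. Of the 17 genes that control lipogenic transcription, 1 rose (Mbtps2, 0.40) and 3 fell in PKA KD, namely Insig1 (-0.90), Nr1h3 (-0.28) and Mlx (-0.28). In Prkar1a KD + Control mAb 7 rose and 6 fell, with Sik1, a kinase gene induced by cAMP, at 3.26 and Insig1, which holds SREBP precursors in the endoplasmic reticulum, at -1.48. In Gnas KD 2 fell, Insig1 (-0.48) and Mlx (-0.27). Of 7 AMPK subunits and malonyl-CoA decarboxylase, 2 fell and 1 rose in Gnas KD, 1 fell in PKA KD (Mlycd, -0.30), and 2 rose and 1 fell (Prkaa2, -0.77) in Prkar1a KD + Control mAb. Of 7 feeding and fasting genes, 2 fell in Gnas KD and 1 in PKA KD (Fgf21, -1.97), and in Prkar1a KD + Control mAb 2 rose, Igfbp1 (3.04) and Irs2 (2.15), and 2 fell, the larger fall being that of Pdk4 (-0.95). In PKA KD 1 of 13 clock genes rose and 1 fell, and in Gnas KD, Gcgr KD and Epac2 KD 0 passed.

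Members also varied together inside groups, after the mean of each group was removed. Acly, Acaca, Acacb, Fasn, Me1 and Pnpla3, grouped after the values were seen, gave 15 pairs in experiment 1 with Spearman rho of 0.81 to 0.93 (median 0.91, 50 libraries). In experiment 2 those pairs ran from 0.50 to 0.88 (median 0.58, 40 libraries). Thrsp against those 6 had a median rho of 0.73 and 0.48. Libraries share depth, and within groups the 6 had rho of 0.35 to 0.44 with the total count in experiment 1 and of 0.03 to 0.28 in experiment 2. Fasn, the synthase, was then set against 3 other members by permutation within groups (100000 resamples, two-sided, 6 relations, Benjamini-Hochberg adjusted). The adjustment covers these 6 relations only, though rho was computed for all pairs of members. The relation with the total count was not removed.

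With Me1, Fasn had Pearson r 0.91 and rho 0.93 in experiment 1, each with p 1e-05, the smallest the permutations give, and adjusted p 6e-05. Without the 2 libraries farthest from the median of Fasn, r was 0.91. In experiment 2 r was 0.60 (adjusted p 0.0004), rho 0.58 (adjusted p 0.00066) and r 0.50 without the 2 farthest, and rho within single groups ran from 0.02 to 0.75. With Srebf1, Fasn had r 0.30 (adjusted p 0.036) and rho 0.28 (adjusted p 0.067) in experiment 1, and r 0.59 (adjusted p 0.00027) and rho 0.38 (adjusted p 0.025) in experiment 2, falling to r 0.23 and 0.40 without the 2 farthest. Within single groups that rho ran from -0.09 to 0.77 (median 0.07) in experiment 1 and from -0.09 to 0.60 (median 0.38) in experiment 2. With Mlxipl, r was -0.43 (adjusted p 0.0049) and rho -0.41 (adjusted p 0.0089) in experiment 1, with r -0.35 without the 2 farthest and rho of -0.81 to -0.19 within single groups. In experiment 2 the r was positive, 0.34 (adjusted p 0.036) with rho 0.18 (adjusted p 0.29), and 0.12 without the 2 farthest, and rho within single groups ran from -0.25 to 0.49.

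**Figure D3:**
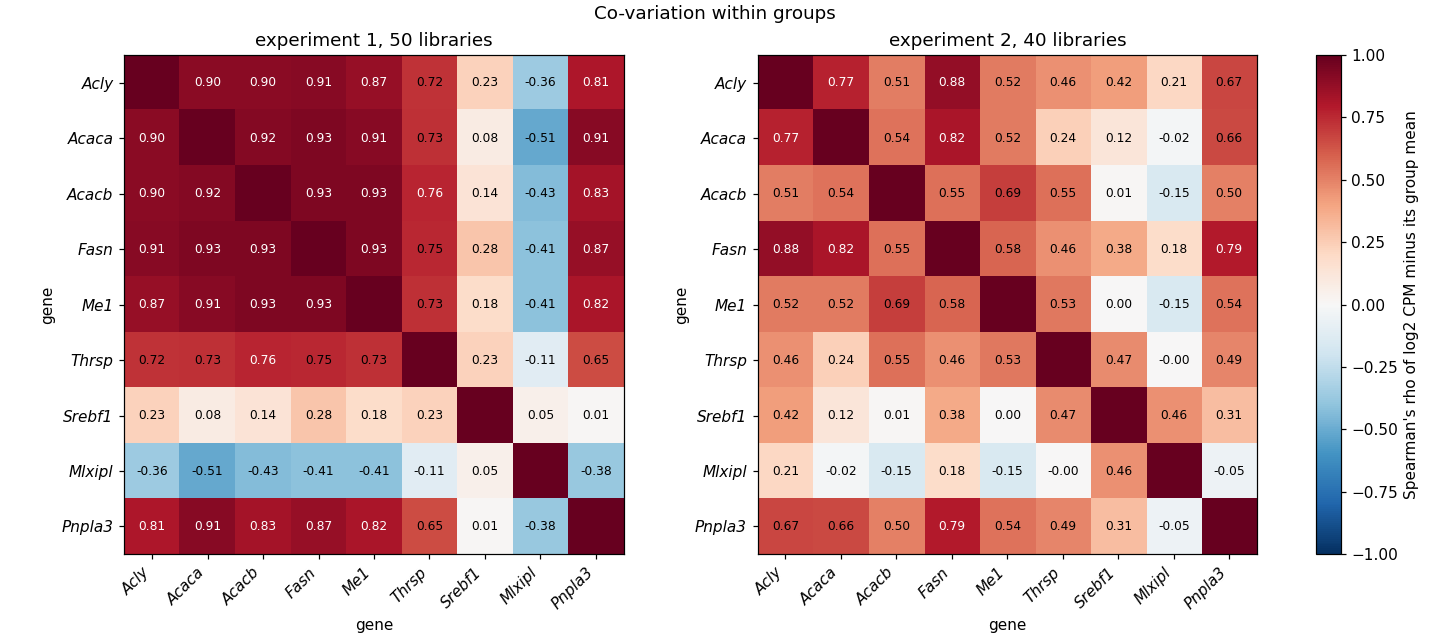
Spearman rho between members over 50 libraries of experiment 1 (left) and 40 of experiment 2 (right), each library as log2 CPM minus the mean of its group. In experiment 1 the enzymes and Pnpla3 reach rho 0.81 to 0.93 with each other, and Mlxipl is negative against them.

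**Figure D4:**
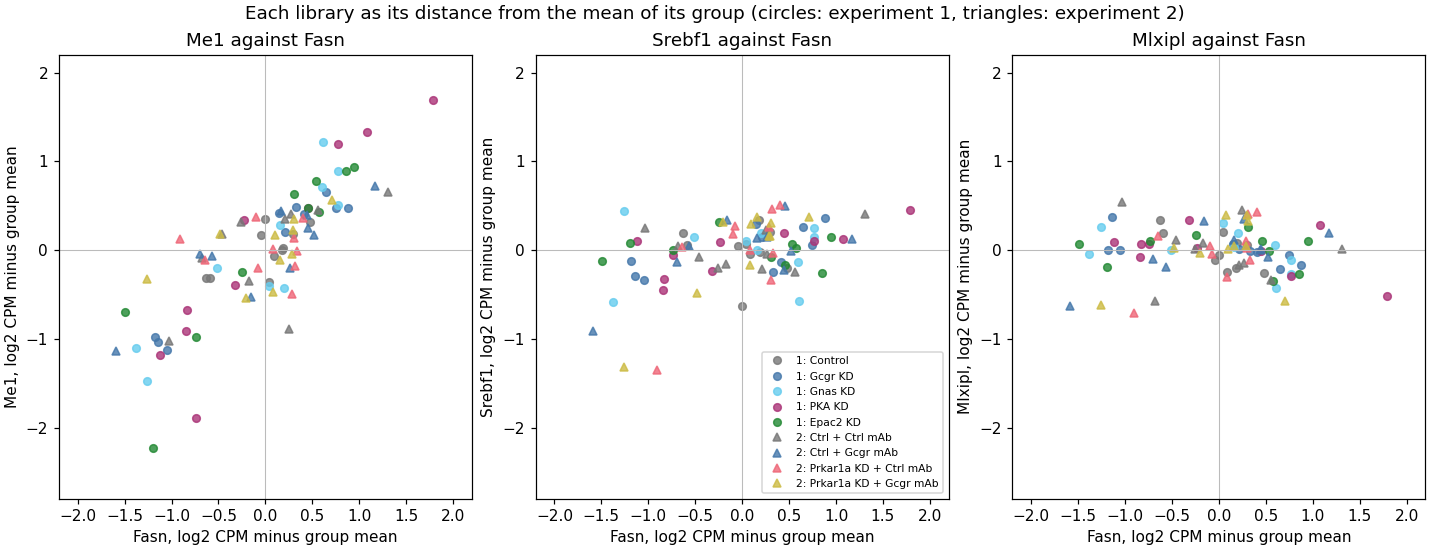
Me1, Srebf1 and Mlxipl (vertical axes) against Fasn (horizontal axes) as log2 CPM minus the group mean, 1 point per library, with circles for experiment 1 and triangles for experiment 2. Me1 rises with Fasn, and Srebf1 and Mlxipl spread less over the same range of Fasn.

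Over all libraries, the gene whose level was most like the mean of the 9 members was Acss2, acetyl-CoA synthetase, by the lower of its rho values in the 2 experiments (0.90 over 50 libraries and 0.94 over 40), among 12737 genes ranked. The next 7 were Pdk1 (0.88 and 0.91), Acsl5 (0.87 and 0.90), Gpam (0.90 and 0.87), Chrna4 (0.86 and 0.86), Insig1 (0.86 and 0.93), Pgrmc2 (0.86 and 0.85) and Pmvk (0.85 and 0.88). These rho values include the differences between groups.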

How the data were processed

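Liver RNA was measured by poly(A) strand-specific RNA-seq in 90 samples, per the labels' protocols. The authors deposited expected counts per Entrez gene, not normalized, with 1 column per sample per the file headers (8.69% and 8.55% of entries have a fractional part). Base calls were made with bcl2fastq 2.17 and reads checked with FastQC, on builds GRCm38 and mm10, per the submitters' processing notes. The sources used here do not name an aligner or counting program. Reads of similar or overlapping genes could be split by that counting.

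All columns matched sample titles (0 unused). Counts were rounded and tested in R 4.3.3 with edgeR 4.0.16 (TMM, filterByExpr, robust quasi-likelihood F test) within each experiment over all its groups, with Benjamini-Hochberg adjustment over all genes tested and a threshold of 0.05. Checks used RLE scaling, no filter, DESeq2 1.42.0, limma-voom 3.58.1, only the groups compared and a replicate block; added after seeing the data, 1 library per group was left out, plus replicate 4 of Control AAV + Control mAb and replicate 8 of Prkar1a KD + Gcgr mAb. The method was tested on simulated data. Correlations used SciPy 1.17.1 and Python 3.11.15.

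All 9 members were named in each comparison, with up to 3 genes per direction of each list by size of change among those called; the lists were substrate supply, control of transcription, AMPK, sugar supply, triglyceride assembly, feeding and fasting, clock and knockdown targets, besides cell type markers. Some genes that this rule would name are not reported here. Members and lists were chosen with earlier results of these data known. No pair of libraries in a group agreed within sampling noise (lowest chi-squared per degree of freedom 14.11 and 7.524). Whether same-numbered libraries pair was not settled. In experiment 1 the median correlation of deviations was 0.0448 for same-numbered cross-group pairs and -0.00371 for other numbers. In experiment 2 these medians were -0.00487 and -0.00782. Of the same-numbered pairs, 37 of 100 and 19 of 60 had a correlation over 0.1.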

Additional observations from a re-analysis of the deposited data

Results flagged for a closer look

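Single libraries stood apart in 10 of the 81 combinations of a member and a group, by the gap to the nearest library as a share of the range. A rate of about 1 in 20 by chance holds only for independent, normally spread values. Members vary together within groups, so no excess over chance can be read from the 10. In Control AAV + Control mAb replicate 4 was the highest for Acacb (163 CPM, next 92.7), Fasn (1470, next 880), Thrsp (699, next 386) and Pnpla3 (15.6, next 6.11). In Prkar1a KD + Gcgr mAb replicate 8 was the highest for Acacb (38.1 CPM, next 17.0), Thrsp (85.3, next 45.8) and Pnpla3 (4.45, next 1.73). Pnpla3 also stood apart in Control AAV + Gcgr mAb replicate 5 (20.3 CPM, next 7.71) and PKA KD replicate 5 (6.07, next 1.65), and Mlxipl in Gcgr KD replicate 5 (488, next 397).

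Me1 was the member whose response to the Gcgr mAb differed between Control AAV and Prkar1a KD by the interaction test, 0.98 on the log2 scale among 9 members tested. The adjusted p was 0.0279, and it was 0.0543 with replicate number as a block, 0.0501 without Control AAV + Control mAb replicate 4 and 0.0506 without Prkar1a KD + Gcgr mAb replicate 8.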

How the results depend on the processing

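Over the other scalings, filters, tools and fits, the number of members called stayed within 1.5 times of that reported in 69 of 77 cases. In Gnas KD against Control it was 1 with no filter and 5 with only the groups compared; in PKA KD against Control 7 with limma-voom; in Gnas KD against Gcgr KD 1 with DESeq2; in PKA KD against Gnas KD 1 with no filter, limma-voom or only the groups compared. The interaction had 0 with the replicate block, against 1 without it. The block gave 3 in Gnas KD and 5 in PKA KD, and no other count differed. Whether replicate numbers pair the libraries was not settled, and 10 of 50 and 3 of 40 libraries correlated best with their own number. With 1 library left out, the counts ran from 1 to 1 in Gnas KD against Gcgr KD, 4 to 6 in PKA KD, 1 to 2 in PKA KD against Gnas KD, 6 to 7 in Prkar1a KD + Gcgr mAb against Control AAV + Control mAb, and 0 to 1 in the interaction.

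The sign changed where values were near 0, none of them called. For Acly it was -0.04 in Gcgr KD and -0.06 in PKA KD against Gnas KD with limma-voom, and, with 1 library left out, -0.01 to 0.08 in Gcgr KD, -0.18 to 0.11 in PKA KD against Gnas KD, and -0.14 to 0.05 in Prkar1a KD. In PKA KD against Gnas KD Acaca ran from -0.01 to 0.24 and Mlxipl from -0.01 to 0.09 with 1 library left out. Mlxipl was 0.01 in PKA KD against Control without PKA KD replicate 5, Srebf1 -0.02 in Gnas KD against Gcgr KD without Gcgr KD replicate 5, Acaca ran from -0.08 to 0.07 with the antibody in Control AAV, and Thrsp -0.0 with limma-voom in the same comparison. The cause was not tested. At a median of 8.75 counts, Pnpla3 in Prkar1a KD + Control mAb was limited by depth.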
